A study of Mus musculus with 28 samples.

Results

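The Hox clusters are 4 chromosomal groups of homeobox genes, and the 38 listed protein-coding members (10 Hoxa, 10 Hoxb, 9 Hoxc and 9 Hoxd genes) were examined among 21887 protein-coding genes for regions of the histone variant H3.3 and of acetylated lysine 27 of histone H3 (H3K27ac). The members were chosen by symbol, and each cluster was read from its first to its last listed gene with 100 kb of flank on either side. These windows held 91 of 5430 H3.3 regions and 10 of 57844 H3K27ac regions on assembled chromosomes. Coordinates are those of mm10 and are counted from 1.

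Hox genes encode transcription factors that give cells their position along the head-to-tail axis. Within a cluster the genes lie in the order in which they are used: those with low paralogue numbers act in the hindbrain and neck, and those with high numbers act in the lumbar and tail region, limbs and genital tract. In embryonic stem cells the clusters are classical targets of the Polycomb repressive complexes, which keep developmental genes silent. H3.3 is the histone H3 variant placed in chromatin outside DNA replication, and H3K27ac marks active promoters and enhancers.

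The regions came from CUT&RUN, in which an antibody guides a nuclease to its target in nuclei and the released fragments are sequenced, in the male mouse embryonic stem cell line ES-E14TG2a (E14). The growth protocol describes medium with LIF and a version with added GSK and MEK inhibitors, without saying which was used for these libraries. The study has 28 libraries, 7 for each of 4 targets (H3K27ac, H3K122ac, H3.3 and no primary antibody). For each target, wildtype cells have 2 libraries, H3f3a_AA_H3f3b_WTA has 2 from separate clones, and H3f3a_AA_H3f3b_WTWT, H3f3a_WTWT_H3f3b_AA and H3f3a_WTA_H3f3b_AA have 1 each, where A stands, per the series title, for the K122A substitution in the H3.3 genes H3f3a and H3f3b. The lists used here are the authors' consensus regions, 1 list for H3.3 and 1 for H3K27ac, with positions and no height or value per library. A comparison of mutant with wildtype cells was therefore not made, depth is unknown, and every count below describes these 2 lists with no replicate error. All 8 embryonic stem cell markers examined (Pou5f1, Sox2, Nanog, Esrrb, Zfp42, Klf4, Tdgf1 and Tfcp2l1) had an H3K27ac region within 1 kb of a gene end. Of the other markers, 0 of 4 primitive endoderm, 0 of 4 neural and 1 of 4 fibroblast markers (Thy1, 213 bp) had one. Among all protein-coding genes the share was 38.8%, so counts of 0 or 1 among 4 genes do not show absence of a cell type.

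The sequences just upstream of 7 Hox start sites show how the edges of H3.3 regions fall on these promoters. They are RefSeq sequences of GRCm38.p6, the assembly whose coordinates mm10 carries, printed 5′ to 3′ along the gene, and capitals mark the bases inside an H3.3 region. Each covers the 250 bases before the annotated start. Hoxa11 (chr6:52245811-52246060, minus strand) and Hoxd10 (chr2:74691641-74691890, plus strand) sit in the widest H3.3 region of their cluster, and Hoxb4 (chr11:96318017-96318266, plus strand) is the only 1 of the 3 Hoxb promoters in RefSeq's table that lies wholly inside a region. Hoxc4 (chr15:103034145-103034394, plus strand) and Hoxd8 (chr2:74704365-74704614, plus strand) cross an edge. Hoxb8 (chr11:96281655-96281904, plus strand) and Hoxd4 (chr2:74721728-74721977, plus strand) lie outside.
Hoxa11: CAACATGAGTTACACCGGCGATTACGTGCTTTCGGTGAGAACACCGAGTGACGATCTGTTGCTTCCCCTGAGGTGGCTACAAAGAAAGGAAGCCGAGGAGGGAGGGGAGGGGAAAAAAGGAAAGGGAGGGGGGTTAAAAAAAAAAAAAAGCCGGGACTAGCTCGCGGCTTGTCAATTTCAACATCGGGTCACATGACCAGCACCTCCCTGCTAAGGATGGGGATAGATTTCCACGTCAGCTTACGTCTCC
Hoxd10: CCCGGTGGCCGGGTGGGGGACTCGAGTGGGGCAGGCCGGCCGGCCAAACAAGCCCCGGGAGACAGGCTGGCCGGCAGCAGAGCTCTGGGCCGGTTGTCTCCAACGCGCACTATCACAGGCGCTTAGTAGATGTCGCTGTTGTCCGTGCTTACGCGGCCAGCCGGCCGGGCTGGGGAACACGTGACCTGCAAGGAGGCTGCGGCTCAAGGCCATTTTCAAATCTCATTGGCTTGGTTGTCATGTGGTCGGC
Hoxb4: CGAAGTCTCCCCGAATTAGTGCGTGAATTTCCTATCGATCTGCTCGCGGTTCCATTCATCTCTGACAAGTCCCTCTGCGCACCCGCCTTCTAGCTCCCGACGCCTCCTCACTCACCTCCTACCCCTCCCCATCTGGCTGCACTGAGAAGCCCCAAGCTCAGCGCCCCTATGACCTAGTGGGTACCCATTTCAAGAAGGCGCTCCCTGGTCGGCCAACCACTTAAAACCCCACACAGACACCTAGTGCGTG
Hoxc4: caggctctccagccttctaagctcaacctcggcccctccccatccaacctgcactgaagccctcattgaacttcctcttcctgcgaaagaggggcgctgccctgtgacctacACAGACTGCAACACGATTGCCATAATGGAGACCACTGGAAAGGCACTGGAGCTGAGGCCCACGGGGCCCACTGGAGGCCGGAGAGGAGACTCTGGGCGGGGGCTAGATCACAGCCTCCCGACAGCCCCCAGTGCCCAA
Hoxd8: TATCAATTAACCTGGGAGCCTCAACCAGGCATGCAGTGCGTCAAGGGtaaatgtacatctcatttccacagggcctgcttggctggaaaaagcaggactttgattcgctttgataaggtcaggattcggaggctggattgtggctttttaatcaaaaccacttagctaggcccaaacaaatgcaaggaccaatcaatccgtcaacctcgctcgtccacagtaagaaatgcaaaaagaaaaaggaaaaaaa
Hoxb8: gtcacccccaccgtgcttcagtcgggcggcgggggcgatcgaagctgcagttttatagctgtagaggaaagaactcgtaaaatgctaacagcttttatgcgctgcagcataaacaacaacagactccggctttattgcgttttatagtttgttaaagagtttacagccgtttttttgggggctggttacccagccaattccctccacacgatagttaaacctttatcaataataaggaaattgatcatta
Hoxd4: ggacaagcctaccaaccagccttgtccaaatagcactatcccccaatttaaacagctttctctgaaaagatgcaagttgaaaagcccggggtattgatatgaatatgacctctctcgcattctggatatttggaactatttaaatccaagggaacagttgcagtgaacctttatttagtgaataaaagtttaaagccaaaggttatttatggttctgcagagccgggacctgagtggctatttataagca
All 250 bases were inside an H3.3 region at Hoxa11, Hoxd10 and Hoxb4. At Hoxc4 the 138 bases nearest the start were inside, and at Hoxd8 only the 47 bases farthest from it. At Hoxb8 and Hoxd4 the count was 0 bases.

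The bodies of the 4 clusters, from first to last listed gene, were densely covered by H3.3 regions and held no H3K27ac region. Together they span 485 kb, of which 189732 bp (39.1%) lay in 79 H3.3 regions. Over the genome H3.3 regions covered 0.147% of the sequence and H3K27ac regions 2.85%. The Hox bodies thus held 4.74% of all H3.3-covered sequence in 1.45% of the H3.3 regions. Of the 91 H3.3 regions in the windows, 0 touched an H3K27ac region, where 47.5% of all H3.3 regions did.

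**Figure D1:**
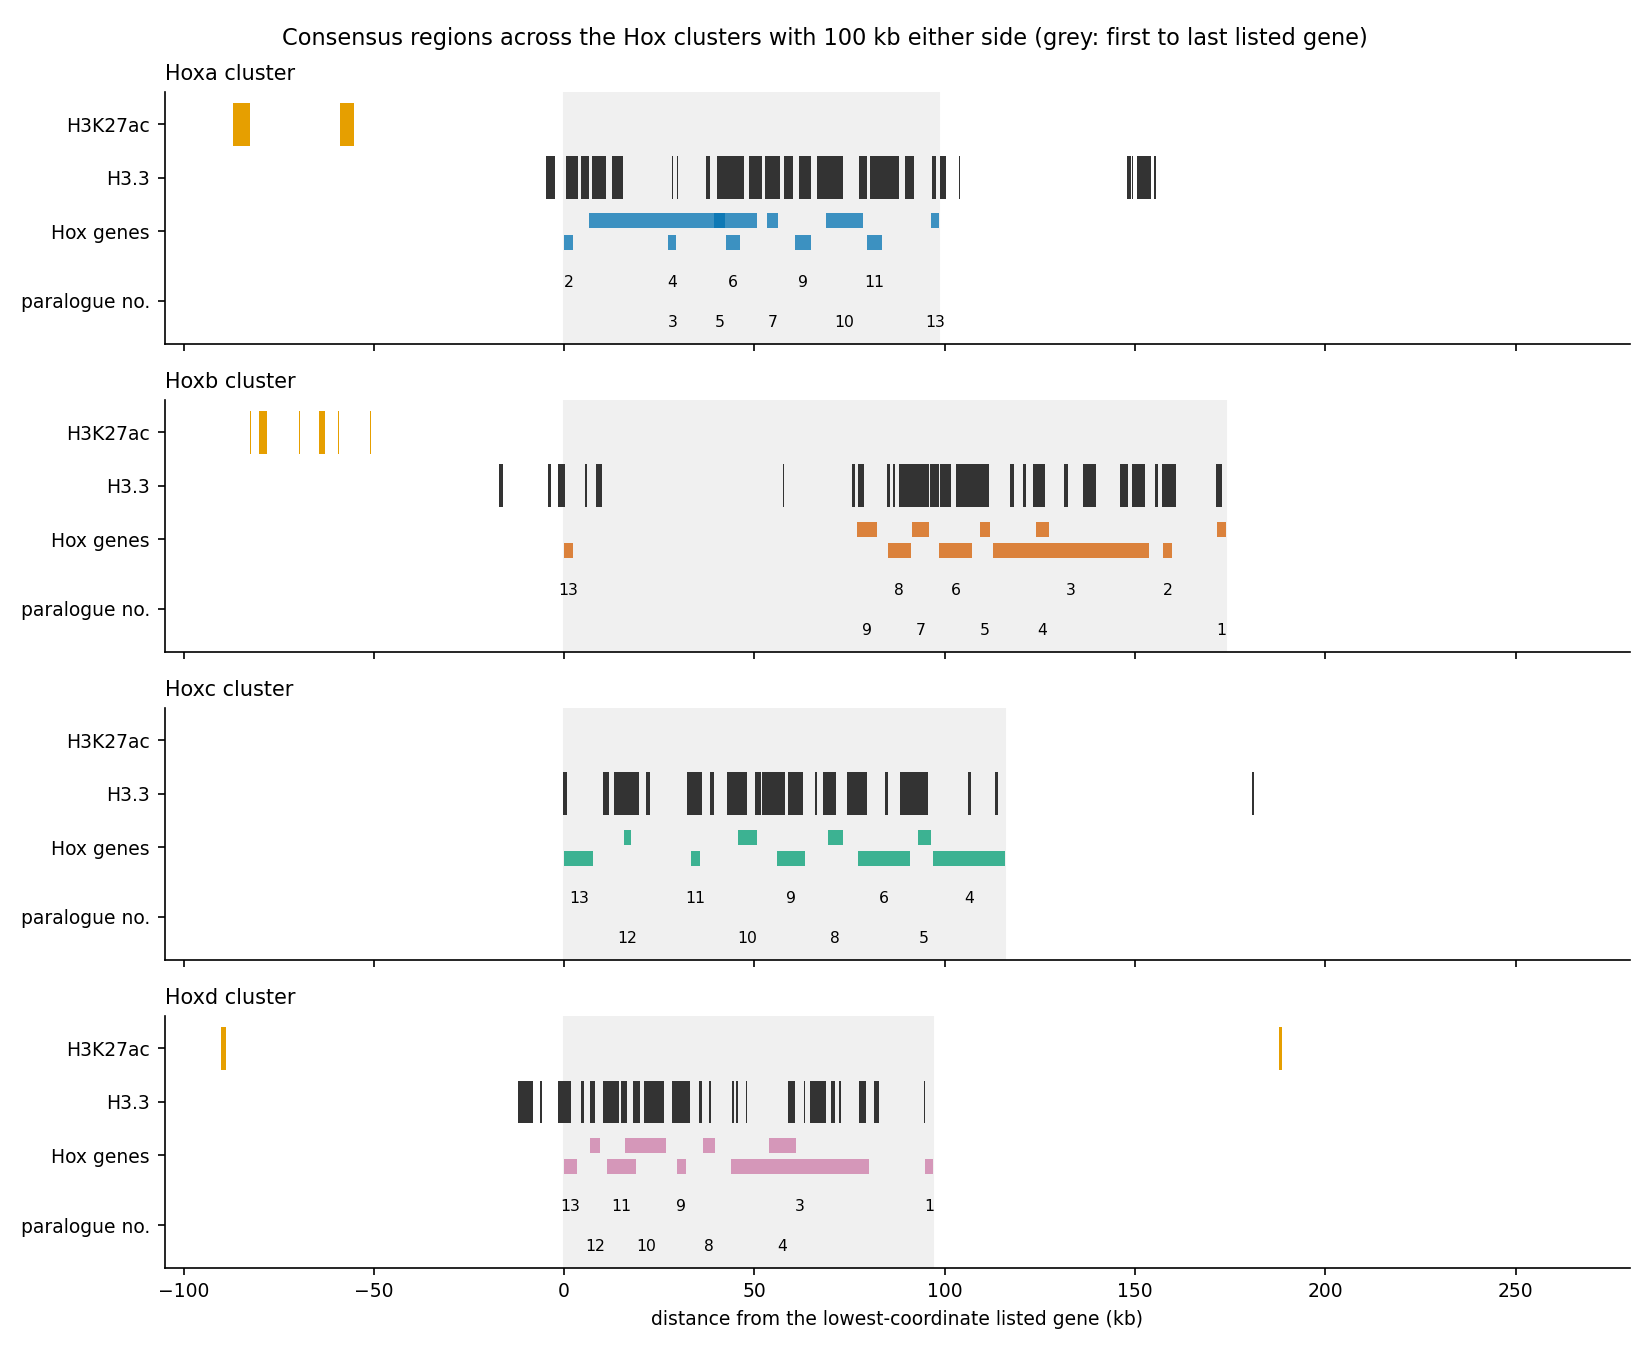
H3.3 regions (black) and H3K27ac regions (orange) across the 4 Hox clusters, with the listed genes as coloured bars and their paralogue numbers below; the x axis is the distance in kb from the lowest-coordinate listed gene and grey marks the cluster body. H3.3 regions cover from 28.5% (Hoxb, with a long gap next to Hoxb13) to 54.3% (Hoxa) of the grey bodies, and the 10 H3K27ac regions lie in the flanks of Hoxa, Hoxb and Hoxd.

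The Hoxa cluster on chromosome 6 (52162417 to 52260880) was the most heavily covered, with 17 H3.3 regions over 54.3% of its 98.5 kb. Hoxc on chromosome 15 (102921131 to 103036856) had 18 regions over 43.8% of 116 kb. Hoxd on chromosome 2 (74668225 to 74765142) had 21 regions over 37.1% of 96.9 kb. Hoxb on chromosome 11 (96194316 to 96368254) had 23 regions over 28.5% of 174 kb. The low value of Hoxb goes with the long interval of 74.7 kb between Hoxb13 and Hoxb9, of which 4.18% lay in H3.3 regions. From Hoxb9 to Hoxb1 the coverage was 47.6%, and the 4 compact groups then ranged from 37.1% to 54.3%.

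H3.3 regions inside the clusters were wider than most of the set. Their median width was 1746 bp (interquartile range 893.5 to 3475 bp), against 451.5 bp (255 to 819 bp) over all 5430 regions. Of the 79 regions in the bodies, 55 (69.6%) were wider than 1 kb, beside 17.8% of all H3.3 regions. Regions wider than 5 kb numbered 11 of 79 in the bodies, beside 0.994% of all (54 regions). Of the 79 regions, 63 touched the span of a listed gene and 16 lay between them. The gaps between successive regions had medians of 1507.5 bp in Hoxa, 2019.5 bp in Hoxd, 2219.5 bp in Hoxb and 2936 bp in Hoxc.

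The clusters differed in where the H3.3 sequence lay. In Hoxd the stretch from Hoxd13 to Hoxd9 was covered to 63.6% and the rest of the body to 24%. In Hoxa the stretch from Hoxa13 to Hoxa9 was covered to 61.7% and the rest to 49.8%. In Hoxc the corresponding values were 49.5% and 36.9%. Hoxb had the opposite order, with 6.31% from Hoxb13 to Hoxb9, the long interval included, and 48.5% over the rest. Between the listed genes, H3.3 regions covered 63.9% of the sequence in Hoxa, 47.4% in Hoxc, 22.2% in Hoxd and 10.4% in Hoxb. The Hoxb value again includes the long interval of 74.7 kb, covered to 4.18%, so it is not comparable with the other 3. Within the gene spans the values were 50.3%, 40.9%, 44.1% and 52.3% in the same order.

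Nearly all members carried H3.3 at a gene end, meaning here up to 1 kb to either side of an annotated end. An H3.3 region touched this window in 37 of 38 members (97.4%, exact Clopper-Pearson 95% interval over genes 86.2 to 99.9%), where 16% of all protein-coding genes had one. In 28 members both ends were touched, but the share of all genes with both ends touched was not computed, so this count has no baseline. The exception was Hoxc4, a neck gene that also acts in B cells, which has 2 H3.3 regions inside its long RefSeq span, the 866 bp one over its start site in RefSeq's promoter table. The widest region at an end had a median of 3986 bp over the 37 genes, while for every protein-coding gene with such a region the median was 486 bp. Of the 50 regions at member ends, 7 were shared by neighbours, and 12 members shared one, so neighbouring members are not independent. The interval above treats them as independent and so understates the uncertainty.

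An H3K27ac region was at an end of 0 of 38 members (interval up to 9.25%), where 38.8% of all protein-coding genes had one. The members lie in 4 clusters, each within a single stretch free of H3K27ac regions. The interval treats genes as independent and so understates the uncertainty. Counting regions anywhere in the gene or within 1 kb of it also gave 0 of 38, beside 50.8% of all genes. The nearest H3K27ac region lay between 50.8 kb and 222 kb from each member, with a median of 127 kb, against a median of 0.5 kb over all protein-coding genes. All 38 members were at least 50 kb away, as were 26.8% of all genes.

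Coverage by H3.3 varied widely between the genes, and it is given here as the percentage of each gene, with 1 kb either side, that lay in H3.3 regions. It ran from 6.25% at Hoxd1 to 100% at Hoxa6, Hoxc12 and Hoxd9, with a median of 60.3% over the 38 genes. In 24 members at least 50% was covered, beside 0.402% of all protein-coding genes (88 genes, of which these 24 are Hox genes). The medians were 33.9% for the 11 anterior members (paralogues 1 to 4), 71.1% for the 11 central members (5 to 8) and 64.8% for the 16 posterior members (9 to 13). The 3 classes overlapped, from 6.25 to 82.4%, from 24.2 to 100% and from 11.4 to 100%, and their difference was not tested, since neighbouring genes share regions.

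**Figure D2:**
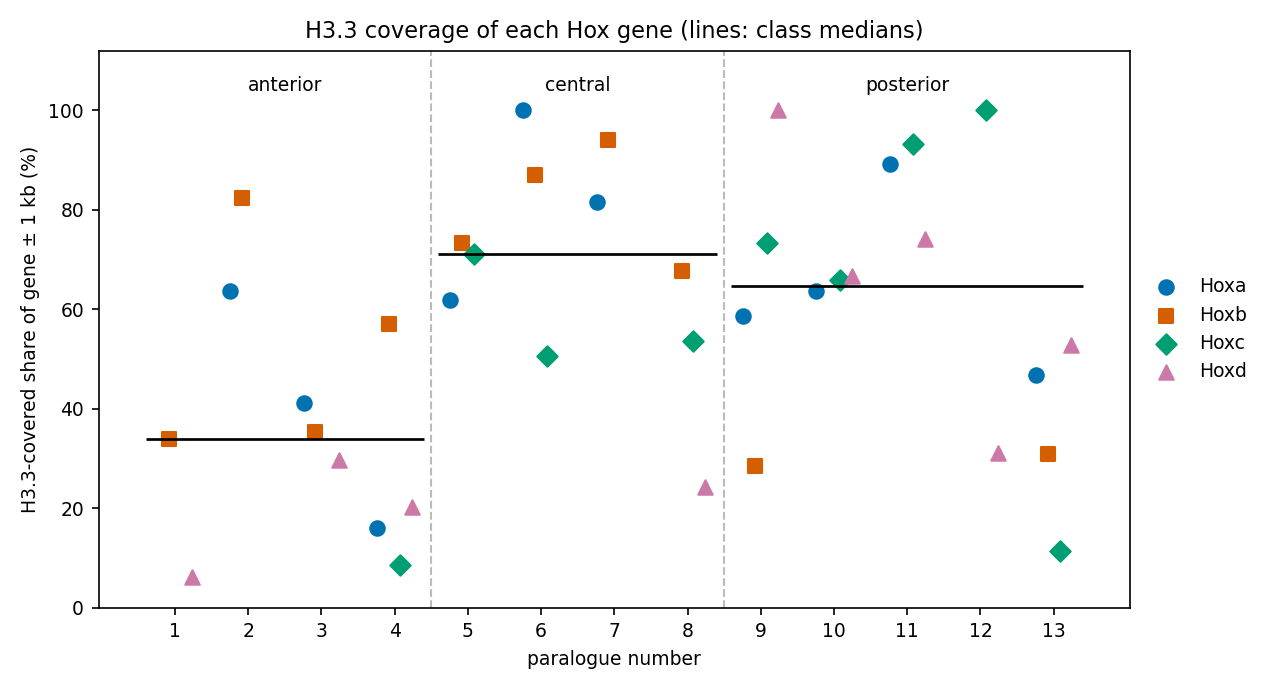
Percentage of each Hox gene with 1 kb either side that lies in H3.3 regions, against paralogue number, by cluster; horizontal lines are the medians of the anterior, central and posterior members. The line for anterior members is at 33.9%, those for central and posterior members are at 71.1% and 64.8%, and the points of the 3 classes overlap.

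Among the anterior members, the 2 genes of paralogue group 2 had the highest coverage. Hoxb2, which patterns the hindbrain, was covered to 82.4% by 1 region of 3715 bp (chr11:96351405-96355119). Hoxa2, the selector gene of the second branchial arch, was covered to 63.6% by 1 region of 3136 bp (chr6:52163022-52166157). Hoxb1, which specifies the hindbrain segment of the facial nerve, had 1 region of 1527 bp (chr11:96365621-96367147) and 33.9%. Hoxd1, at the other end of the scale, had a single region of 260 bp (chr2:74762786-74763045) and 6.25%.

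The group 3 genes have long RefSeq spans that reach across neighbouring Hox genes, so their values include regions of those neighbours. Hoxa3, needed for thymus and parathyroid, held 8 regions in its span with 1 kb either side, 2131, 3547, 2765, 398, 247, 954, 7205 and 3205 bp wide, and was covered to 41.1%. The 7205 bp region among them is that of Hoxa5 and Hoxa6, which lie inside the Hoxa3 span. Hoxb3 held 7 regions and was covered to 35.3%, and Hoxd3, which shapes the uppermost neck vertebrae, held 9 and was covered to 29.8%. The widest of those at Hoxd3, 4396 bp (chr2:74732692-74737087), lay inside the span, between Hoxd4 and the high-coordinate end of Hoxd3.

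The group 4 genes were among the least covered. Hoxa4 had only short regions, of 398 and 247 bp, and 16.0%. Hoxd4 had 1 region of 1866 bp (chr2:74727039-74728904) at its downstream end and 20.3%. Hoxc4 had regions of 937 and 866 bp and 8.68%. Hoxb4, known for expanding blood stem cells, stood apart from these with 1 region of 3068 bp (chr11:96317573-96320640) and 57.1%.

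The widest region at an end had a higher median in the central members (7459 bp) than in the posterior (4014 bp) or anterior ones (1866 bp, with Hoxc4 counted as 0), and the 2 widest regions were theirs. In these medians a region shared by neighbours counts for each of them, and the difference was not tested. The widest, 8656 bp (chr11:96297239-96305894), reached from Hoxb6 across Hoxb5, and Hoxb5 was covered to 73.4% and Hoxb6 to 87.1%. A region of 7823 bp (chr11:96282281-96290103) joined Hoxb8 and Hoxb7, which were covered to 67.7% and 94.1%. In Hoxa a region of 7205 bp (chr6:52202592-52209796) joined Hoxa5, a lung and neck patterning gene, with Hoxa6, at 62.0% and 100%. In Hoxc a region of 7459 bp (chr15:103009405-103016863) joined Hoxc5 and Hoxc6, at 71.1% and 50.6%. Wide regions shared by a group 5 gene and its group 6 neighbour were thus present in each of the 3 clusters that have these genes.

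The other central members lay below or beside these. Hoxa7 had 1 region of 4044 bp (chr6:52215152-52219195) that reached past both its ends, and 81.7%. Hoxc8, which directs motor neurons of the forelimb level, had 1 region of 3495 bp (chr15:102989123-102992617) and 53.7%. Hoxd8 was the least covered central gene, with regions of 787 bp and 501 bp and 24.2%, and stood below the other 2 genes of its paralogue group.

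Posterior members of groups 9 to 12 were covered to more than 50%, except Hoxb9 and Hoxd12. Hoxd9 lay wholly inside a region of 4882 bp (chr2:74696535-74701416) and Hoxc12 inside one of 6592 bp (chr15:102934094-102940685). Hoxc9, which sets the thoracic motor neuron program, was covered to 73.4%, with its widest region at 5429 bp. Hoxa9, a blood progenitor and leukaemia gene, had regions of 2559 and 3166 bp and 58.6%. Hoxb9 had regions of 626 and 1746 bp and 28.5%.

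The 3 group 10 genes had nearly equal coverage, 63.7% at Hoxa10, which acts in the uterus, 65.8% at Hoxc10 and 66.7% at Hoxd10, both of which act in lumbar motor neurons. Their widest regions measured 6922, 5162 and 5373 bp. Group 11, whose genes shape forearm and kidney, was higher, with 89.2% at Hoxa11, 93.3% at Hoxc11 and 74.2% at Hoxd11. The region of 7566 bp (chr6:52242713-52250278) over Hoxa11 also covered the antisense RNA gene Hoxa11os. Hoxd12, a limb gene, had a region of 1274 bp (chr2:74675023-74676296) and shared one of 4014 bp with Hoxd11, and was covered to 31.2%.

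The group 13 genes, at the ends of the clusters, had lower coverage again. Hoxd13, which patterns the digits, had a region of 3373 bp (chr2:74666623-74669995) over its start and one of 1016 bp beyond its other end, and 52.9%. Hoxa13, active in digits and the genital tract, had regions of 1207 and 1512 bp and 46.9%. Hoxb13, a prostate and tail gene, had 1 region of 1875 bp (chr11:96192766-96194640) and 30.8%. Hoxc13, a hair and nail gene, had 1 region of 1107 bp (chr15:102920751-102921857) and 11.4%. In these 4 the region or regions lay at a gene end.

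Start sites could be examined for the 22 members that RefSeq's promoter table holds, with 24 start sites. An H3.3 region lay within 1 kb of a start site in 21 of the 22 genes, where 16.4% of protein-coding genes in that table had one. The exception was Hoxd4, whose promoter was 5011 bp from the nearest region. The promoter window, from 250 bases before to 50 after the start, touched an H3.3 region at 20 of 24 Hox start sites (83.3%), beside 11.8% of all 21263 protein-coding promoters. It lay wholly inside one at 14 of 24 (58.3%), beside 4.49% of all. The 4 promoters outside were those of Hoxd3, 155 bp away, Hoxa13, 68 bp away, Hoxb8, 326 bp away, and Hoxd4.

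Around the start sites H3.3 regions were most frequent over the first 2 kb downstream. At the start itself 75% of Hox sites and 7.19% of all protein-coding sites were inside a region. The share for Hox sites was 79.2% at 500 bases downstream and 66.7% at 500 bases upstream. At 2 kb it was 50.0% downstream and 41.7% upstream, where all protein-coding sites had 0.790% and 0.762%. Neighbouring Hox genes and their regions fall within these distances, so the values far from the start are not those of single promoters.

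**Figure D3:**
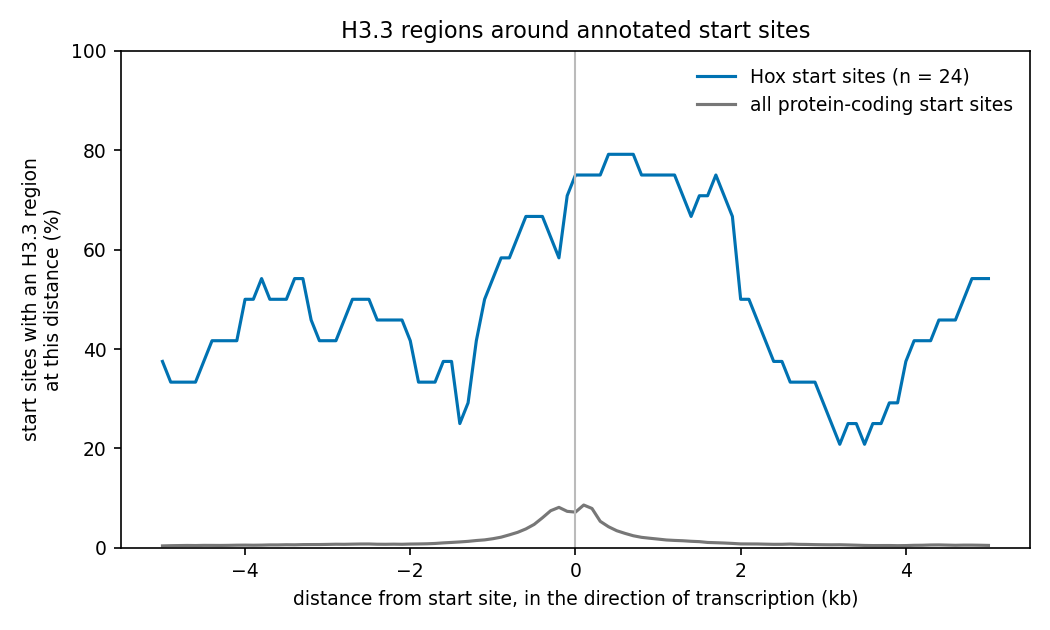
Percentage of start sites with an H3.3 region at each distance, in kb along the direction of transcription, for the 24 Hox start sites (blue) and all protein-coding start sites (grey). The Hox line is at 75% at the start and the grey line at 7.19%.

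The letters of the promoters varied between members. CG pairs, counted in the 300-base window, ranged from 4 at Hoxa9, Hoxd4 and the upstream start of Hoxd11 to 45 at Hoxa13, with a median of 14.5 over the 24 Hox promoters and 13 over all protein-coding promoters. In the 20 Hox promoters that touched an H3.3 region the median was also 14.5, while in the 2508 protein-coding promoters that touched one it was 22. The Hoxa13 promoter, richest in CG pairs, touched no region, and of the 3 poorest those of Hoxa9 and Hoxd11 touched one and that of Hoxd4 did not.

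Short motifs were searched on both strands of the 300-base windows, as letters only. CCAAT was in 15 of 24 Hox promoters (62.5%, beside 38.2% of all protein-coding promoters) and TATAAA in 4 (16.7%, beside 12.6%). TTTATG, the core of caudal-type sites, was in 5 (20.8%, beside 9.71%), and 3 of these 5, at Hoxb8, Hoxd3 and Hoxd4, were in promoters that touched no H3.3 region. TGATTGAT, a Pbx and Hox composite site, was in 2, at Hoxa2 and the downstream start of Hoxd11 (8.33%, beside 0.616%), and both touched one. CCAAT can share end letters with each of the other 3, and a match does not show binding.

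Compared with the rest of the genome, the clusters stood at the upper end of H3.3 coverage. In bins of 100 kb, 0.125% of 27206 bins (34 bins) had at least 10% of their length in H3.3 regions, and 8 of the 9 bins over a Hox body did. The bin over Hoxa5 to Hoxa13 had the highest value of all, 42.8%, and the bin over Hoxc13 to Hoxc8 the next, 40.2%. The Hoxb bins with Hoxb5 to Hoxb1 and Hoxb9 to Hoxb6 had 27.2% and 21.8%, and the bins of Hoxd had 25.9% and 15.8%. The bin with Hoxb13 had 3.85%.

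**Figure D4:**
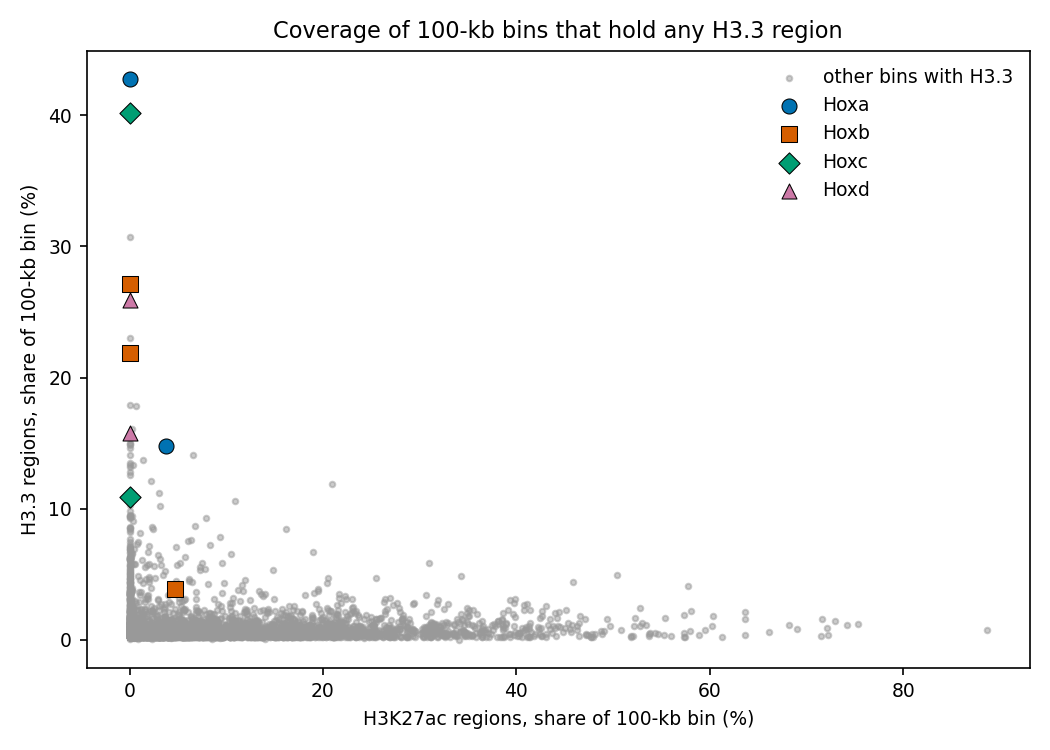
Percentage of each 100-kb bin in H3.3 regions (y axis) against the percentage in H3K27ac regions (x axis), for bins with any H3.3 region; large symbols are the 9 bins over a Hox body. Of the Hox bins 7 lie at 0 on the x axis, and the highest reaches 42.8% on the y axis.

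Each cluster lay in a long stretch without any H3K27ac region. The stretch measured 326 kb around Hoxa, 523 kb around Hoxb, 441 kb around Hoxc and 277 kb around Hoxd. By the H3.3-covered sequence they held, which was 62.9, 52.9, 53.1 and 41.7 kb, these stretches took ranks 1, 3, 2 and 4 among 57823. By length the Hox stretches ranked only 1697, 1049, 1241 and 1994. Of the 57823 stretches, 2665 held any H3.3, with a median of 0.384 kb.

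**Figure D5:**
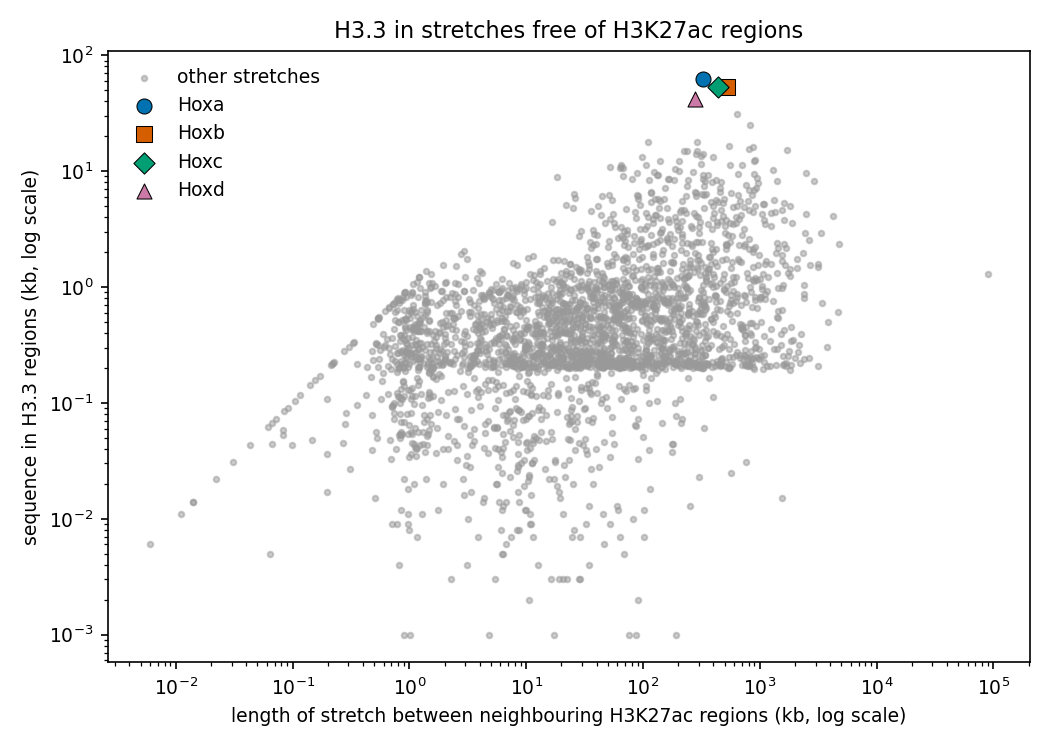
H3.3-covered sequence in kb (y axis, log scale) against the length in kb (x axis, log scale) of each stretch between neighbouring H3K27ac regions that holds any H3.3; large symbols are the stretches of the 4 Hox clusters. The Hox stretches, at 41.7 to 62.9 kb, lie above all others.

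H3.3 regions thinned out beyond the clusters. The flanks, 800 kb in all, held 12 H3.3 regions over 2.41% of their length, against 39.1% in the bodies. They were most covered next to the posterior ends of Hoxa (7.18%) and Hoxd (5.77%), where the homeobox genes Evx1 and Evx2 lie. Evx1, a factor of spinal interneurons, had regions of 3682 and 508 bp and Evx2 one of 3742 bp inside it and one of 428 bp beside it, and neither had H3K27ac. The flanks beyond the anterior ends of Hoxb and Hoxd held 0 H3.3 regions.

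Of the 10 H3K27ac regions in the flanks all but the widest touched a neighbouring gene. That one measured 4506 bp (chr6:52075422-52079927) and lay in the Hoxa window. The next, 3721 bp (chr6:52103398-52107118), lay on the RNA gene Halr1 and ended 55.3 kb from Hoxa2. In the Hoxb window 6 regions of 188 to 2162 bp lay over Calcoco2 and Ttll6, the nearest 50.8 kb from Hoxb13. On the other side Skap1, a T cell adaptor gene that reaches into the window, had 5 H3K27ac regions over 4022 bp, the widest at a gene end 483 bp, and all lay beyond the window. At Hoxd, a region of 1117 bp lay at the end of Lnpk, a gene for an endoplasmic reticulum protein, and one of 760 bp inside Mtx2. The Hoxc window held 0 H3K27ac regions.

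The noncoding RNA genes of the clusters gave counts near those of the coding members. Of 18 listed, 15 were found in the gene table, and 14 of these had an H3.3 region at an end and 0 an H3K27ac region. Among all protein-coding genes the shares were 16% and 38.8%. Some of the regions are also those of coding members, such as the 3715 bp region on both Hoxb3os and Hoxb2. The RNA and coding counts are therefore not separate results. Hoxb5os was next to the 7823 bp region, held the 8656 bp region inside its span, and was covered to 78.8% with 1 kb either side. Hoxb3os had a widest region at an end of 3715 bp, and Hoxaas2 one of 3547 bp. Hotair, the antisense RNA between Hoxc12 and Hoxc11, had only a region of 1102 bp that ended 332 bp from it. The exception was Mir196a-1, between Hoxb13 and Hoxb9, 4764 bp from the nearest H3.3 region.

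The microRNAs are shown because copies of the same seed lie in several clusters with different H3.3. They are mature sequences from RefSeq (GRCm38.p6), printed 5′ to 3′ with the seed, bases 2 to 8, in capitals.
mmu-miR-196a-5p: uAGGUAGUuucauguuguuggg
mmu-miR-196b-5p: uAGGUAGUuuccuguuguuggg
mmu-miR-10a-5p: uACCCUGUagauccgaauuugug
mmu-miR-10b-5p: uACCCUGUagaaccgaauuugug
mmu-miR-615-3p: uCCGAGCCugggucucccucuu
The miR-196 group shares the seed AGGUAGU and targets Hox transcripts. Of its 3 genes, Mir196b (next to Hoxa10) lay in the 6922 bp H3.3 region and Mir196a-2 (between Hoxc10 and Hoxc9) in one of 573 bp, while Mir196a-1 lay outside. The miR-10 pair shares the seed ACCCUGU, and both its genes were outside a region, Mir10a by 298 bp and Mir10b by 901 bp. Mir615, inside Hoxc5, lay in the 7459 bp region.

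Genes that act with or before Hox genes are given beside the shares of all protein-coding genes, 16% with H3.3 and 38.8% with H3K27ac at an end, and no difference was tested. Of 6 ParaHox and Cdx genes, the sister group of the Hox clusters and their caudal relatives, 4 had H3.3 at an end (Gsx1 6567 bp, Cdx2 3323 bp, Pdx1 3027 bp and Gsx2 2454 bp) and 0 had H3K27ac. Of 9 Hox cofactor genes of the Pbx, Meis and Pknox families 4 had H3.3 at an end (Meis2 3218 bp, Meis1 2781 bp, Pknox2 2119 bp and Pbx3 792 bp) and 2 had H3K27ac there (Pbx2 899 bp and Pknox1 832 bp). Counting the whole gene with 1 kb either side, 8 of the 9 had H3K27ac, beside 50.8% of all genes. Of 12 retinoic acid genes, whose signal switches on anterior Hox genes, 5 had H3.3 at an end (Cyp26a1 2528 bp, Crabp1 1002 bp, Rarg 930 bp, Rxrb 635 bp and 1 more) and 2 had H3K27ac (Rarg 5924 bp and Rara 209 bp).

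Other developmental families and another gene cluster give a scale. Of the 6 Dlx genes 5 had H3.3 at an end and 0 H3K27ac, and of the 6 Iroquois genes likewise 5 and 0, beside 16% and 38.8% of all protein-coding genes, with median coverage of 35.8% and 37.9% per gene against 60.3% for the Hox members. The widest regions at their ends were 8763 bp at Dlx2 and 4800 bp at Irx3, beside 8656 bp at Hoxb5 and Hoxb6. Of 55 clustered protocadherin genes, which give neurons their surface identity, 7 (12.7%) had H3.3 and 21 (38.2%) H3K27ac at an end, shares near those of all genes (16% and 38.8%). Their 912 kb on chromosome 18 was covered by H3.3 to 0.742% and by H3K27ac to 1.04%, beside 0.147% and 2.85% of the genome. By covered sequence this cluster thus lay above the genome in H3.3 and below it in H3K27ac, as the Hox bodies did. That stretch held only 11 H3K27ac regions, so several of the 21 genes counted with one share a region and are not independent. These differences were not tested.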

How the data were processed

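CUT&RUN was done in E14 mouse embryonic stem cells for 4 targets in 5 genotypes, and the titles place the 28 libraries in groups. The authors deposited 2 lists of consensus regions, which give each region's start and end and hold no score, height or value per library; the build mm10 and the tools Bowtie2, SAMtools, deepTools and MACS2 appear, with no version or role, per the submitters' processing notes. How libraries were combined is not given in the sources used here, and the submitters' protocols differ in nuclease fusion and salt between the targets, so the lists do not compare amounts. Columns of other samples numbered 0.

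Starts were raised by 1. Regions off the 21 assembled chromosomes (16 of H3.3, 13 of H3K27ac) were not used. Genes came from RefSeq's table for GRCm38.p6, which has no exons; strand and start sites came from its promoter table, which held 22 of the 38 members. Of the genes the symbol rule takes, 1 is not reported here. Overlap meant 1 bp or more. The genome length behind percentages is the span up to the last gene or region of each chromosome. Python 3.11.15, numpy 2.4.6, pandas 2.3.3 and scipy 1.17.1 were used, and interval counts were tested on simulated data. No set test was run.

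Members and lists were chosen with earlier results of these data known. All 38 members are named, with window genes that have a region at an end (besides Mtx2 and Halr1, named for the region they hold), the widest regions, and members of each list with the widest regions at an end. That rule set 4 names a list; the further cofactor, retinoic acid, RNA and stem cell marker genes were named after their values were seen. The minimums of 10% per bin, 50% per gene, 50 kb, 1 kb and 5 kb were set after the values were seen. Alternatives covered the gene-end window, overlap, flank, region width, joining and bin position.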

Additional observations from a re-analysis of the deposited data

How the results depend on the processing

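Of the 24 alternatives run, 21 left the count or value within 1.5 times that reported. With only start sites from the promoter table, the members with H3.3 numbered 21, because only 22 have such an entry. The 10 H3K27ac regions in the windows became 0 with flanks of 50 kb and 0 with none, since all lie more than 50 kb from a listed gene. Members with H3.3 at an end numbered 36 with a window of 500 bp, 38 with 2.5 kb and 35 with the wider 50% of regions. Members with H3K27ac stayed at 0 in each of its 6 alternatives. These 6, which count among the 21, could give no other value, since every member was at least 50.8 kb from an H3K27ac region. The alternatives for H3.3 regions touching H3K27ac, also among the 21, were likewise fixed at 0. The closest pair in the windows, at Hoxb, was an H3K27ac region ending at 96143509 and an H3.3 region starting at 96177257. Coverage of the bodies was 38.7% with the wider 50% of regions. With bins starting 50 kb later, a choice made after seeing the data, 6 of 9 Hox bins instead of 8 had at least 10% H3.3. No paired analysis was possible because the lists hold no value per library, and for the same reason no replicate could be left out. Region heights and read depth are unknown, so weak signal below the authors' threshold cannot be told apart from none.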

Other observations

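Some loci outside the Hox clusters, chosen here after their values were seen, also held much H3.3 in stretches free of H3K27ac. The stretch with Six3 and Six2, forebrain, eye and kidney regulators, held 25.15 kb of H3.3 in 816 kb and took rank 6 by H3.3 content. That of Pax2, a kidney and midbrain regulator, held 17.9 kb in 110 kb and took rank 7. Among bins of 100 kb, H3.3 regions covered 23.0% of the bin with Six3 and Six2 (rank 6), 17.9% of that with Pax2 (rank 8) and 17.8% of that with Pax6, an eye and forebrain regulator (rank 9).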
